A study of Homo sapiens with 18 samples.

Results

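The glucocorticoid receptor (GR) was bound within 100 kb of 6 of 10 Kruppel-like factor genes in dex-treated U2OS-GRα cells. All 6 had a peak that close after depletion of the coregulator Hic-5, as did 43.6% of all protein-coding genes. The 10 genes were KLF2, KLF4, KLF5, KLF6, KLF7, KLF9, KLF10, KLF11, KLF13 and KLF15. A GR binding region (GBR) was taken as theirs when the summit of a ChIP-seq peak lay within 100 kb of the transcription start site (TSS) of the gene's canonical transcript. The 6 peak lists of the study held 66 such peaks, which merged into 20 regions once peaks overlapping by at least 1 bp were joined. Of the 2582 peaks in the siNS/siNS list 11 lay near a KLF gene, and of the 9533 in siHic5/siNS 19 did. The numbers were 12 of 2451 in siCHD9/siHic5, 11 of 3383 in siBRM/siHic5, 6 of 1415 in siCHD9/siNS and 7 of 1278 in siBRM/siNS. Proximity does not show that GR at a region regulates the gene, and RNA levels were not analysed here.

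U2OS is a human osteosarcoma line, and the cells used carry a stably introduced GRα. All 6 groups received siRNA for 48 h and then 100 nM dexamethasone (dex), a synthetic glucocorticoid, for 1 h, so hormone was shared by every group and no group without dex was used here. The controls received nonspecific siRNA only (siNS/siNS). The other groups were depleted of the coregulator Hic-5 (siHic5/siNS), of Hic-5 together with the chromatin remodeler CHD9 (siCHD9/siHic5) or BRM (siBRM/siHic5), or of a remodeler alone (siCHD9/siNS and siBRM/siNS). Each group had 2 GR ChIP libraries, 12 in all, and 1 input library, 6 in all, and the authors called peaks on the pooled replicates. A list is therefore a single value per siRNA combination. The spread between replicates is thus unknown, and no difference between lists was tested. Intervals given below are exact (Clopper-Pearson) 95% intervals that cover counting error only, and regions of one gene share a locus. The identity of the cells could not be checked from peak positions, and the lists give no read depth.

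Kruppel-like factors are zinc-finger transcription factors that bind GC-rich and CACCC sequences through a conserved DNA-binding domain. Related members act as activators or repressors of growth, differentiation and metabolism, often at the same sequences. Several are known glucocorticoid-responsive genes, among them KLF9, a repressor that also responds to thyroid hormone, and KLF15, a regulator of amino acid breakdown and glucose production. GR itself binds the glucocorticoid response element (GRE), an inverted repeat of 2 half-sites separated by 3 bases, and is also found at regions where AP-1 or other factors bind.

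Sequences at the summits of some of these regions are given here. The GRE was searched as a 15-letter pattern in which 1 of 10 defined positions could mismatch, and AP-1 as TGANTCA, on both strands. Printed bases run 5′ to 3′ on the plus strand of hg38 and are centered on the siHic5/siNS summit. Capitals mark GRE and AP-1 matches, and each region is named by its gene and the distance of its summit from the TSS, negative when upstream. The first 6 regions were called in siNS/siNS and are shown because the results below turn on them: the strongest regions of KLF6, KLF9 and KLF15 in siHic5/siNS, and upstream regions of KLF7 and KLF9 whose calls are followed from list to list.
KLF9 −5.45 kb, chr9:70420049-70420169: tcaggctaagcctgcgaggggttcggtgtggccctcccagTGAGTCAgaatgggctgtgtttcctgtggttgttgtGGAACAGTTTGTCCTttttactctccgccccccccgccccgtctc
KLF9 −66.2 kb, chr9:70480842-70480962: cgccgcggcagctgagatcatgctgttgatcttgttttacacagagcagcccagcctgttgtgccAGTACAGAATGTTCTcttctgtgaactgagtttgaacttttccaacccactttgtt
KLF15 +1.38 kb, chr3:126355970-126356090: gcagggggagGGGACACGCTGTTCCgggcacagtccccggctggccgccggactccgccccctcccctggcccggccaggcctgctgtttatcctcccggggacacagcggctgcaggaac
KLF7 −73.4 kb, chr2:207239310-207239430: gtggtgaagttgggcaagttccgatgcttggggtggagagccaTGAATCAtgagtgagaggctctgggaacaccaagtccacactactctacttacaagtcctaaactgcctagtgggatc
KLF6 −25.1 kb, chr10:3810299-3810419: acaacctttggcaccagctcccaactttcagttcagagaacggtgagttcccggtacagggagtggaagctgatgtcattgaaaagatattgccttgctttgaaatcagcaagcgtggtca
KLF9 −24.1 kb, chr9:70438685-70438805: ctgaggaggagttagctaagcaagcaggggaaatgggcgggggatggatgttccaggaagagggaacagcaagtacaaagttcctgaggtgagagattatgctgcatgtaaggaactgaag
Both KLF9 −5.45 kb and KLF9 −66.2 kb held a GRE with 0 mismatches, at 23 and 12 bp from the summit. At KLF15 +1.38 kb a GRE with 0 mismatches was centered 43 bp from the summit. The KLF7 −73.4 kb sequence held AP-1 14 bp from the summit and no GRE in its 1-kb window. KLF7 +31.9 kb, the strongest KLF7 region in siHic5/siNS, is not printed and held neither GRE nor AP-1 in its 1-kb window. Neither pattern was found in the printed part of KLF6 −25.1 kb or KLF9 −24.1 kb, although AP-1 matched 104 and 68 bp from their summits. The next 3 regions were called in siHic5/siNS and in no other list, and are shown for comparison.
KLF15 −31.9 kb, chr3:126389289-126389409: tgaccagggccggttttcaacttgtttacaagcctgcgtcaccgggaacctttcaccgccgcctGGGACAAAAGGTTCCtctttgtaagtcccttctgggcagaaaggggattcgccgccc
KLF6 −20.2 kb, chr10:3805345-3805465: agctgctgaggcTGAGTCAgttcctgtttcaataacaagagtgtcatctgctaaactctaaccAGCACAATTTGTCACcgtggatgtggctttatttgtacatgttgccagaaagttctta
KLF4 −58.8 kb, chr9:107548487-107548607: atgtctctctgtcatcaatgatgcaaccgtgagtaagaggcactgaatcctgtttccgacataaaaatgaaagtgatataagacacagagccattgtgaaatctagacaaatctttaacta
A GRE with 1 mismatch lay 11 bp from the summit at KLF15 −31.9 kb and 10 bp at KLF6 −20.2 kb. KLF6 −20.2 kb also held AP-1 at 45 bp, and KLF4 −58.8 kb held neither pattern in its 1-kb window. A match describes letters and does not show that GR contacts them.

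The regions were unevenly spread over the family. KLF7, KLF9, KLF10 and KLF15 had 4 regions each, KLF6 had 3 and KLF4 had 1. KLF2, a factor of endothelial quiescence, had none, and its nearest siHic5/siNS summit was 111 kb away. KLF5, which promotes proliferation of intestinal epithelium, KLF11, a relative of KLF10, and KLF13, known for activating a chemokine gene in T lymphocytes, also had none, with the nearest siHic5/siNS summits at 764, 223 and 1809 kb. Of the 20 regions 14 lay upstream and 6 downstream of the TSS, and 7 lay within 10 kb of it. The nearest protein-coding TSS was that of the KLF gene for 19 regions, the exception being KLF15 −31.9 kb, which lay 5.56 kb from CFAP100. Among the 19 siHic5/siNS peaks 7, or 36.8% (16.3 to 61.6), lay within 10 kb of the KLF TSS. Over all pairs of a siHic5/siNS peak and a protein-coding gene within 100 kb the share was 11.0%.

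**Figure D1:**
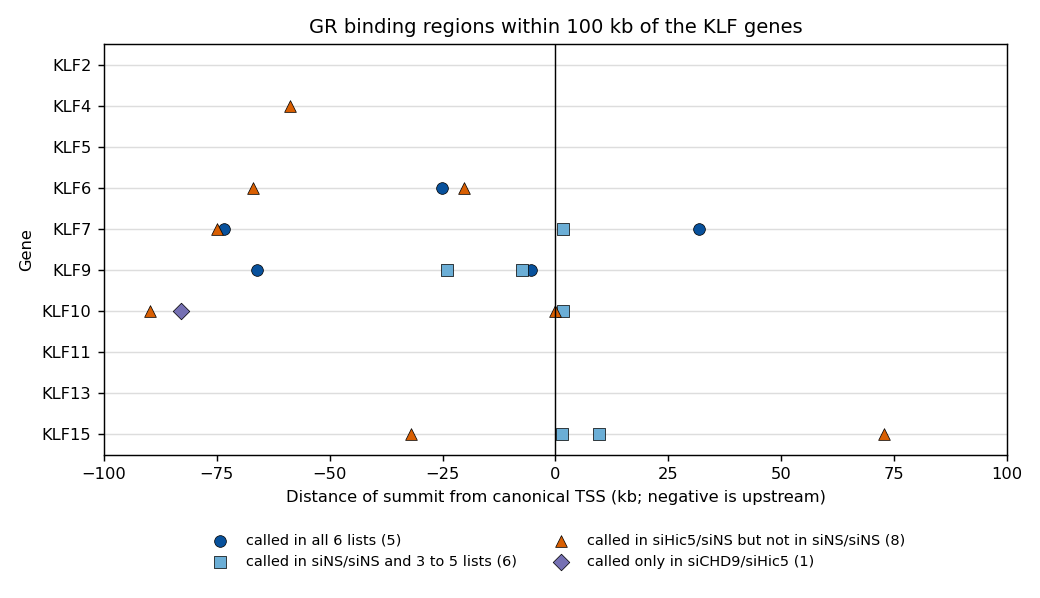
Position of the 20 GR binding regions by distance of the summit from the TSS in kb (x axis, negative is upstream) for the 10 KLF genes (y axis), with 1 symbol per region and its shape and color giving the lists that called it. Regions called in all 6 lists lay at KLF6, KLF7 and KLF9, and 4 genes had no region.

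In siNS/siNS 5 of the 10 genes had at least 1 peak, compared with 17.0% of the 20033 protein-coding genes. After Hic-5 depletion 6 of 10 had one (KLF4 was added), against 43.6% of all genes. Peaks were found at 5 genes in siCHD9/siHic5 (16.4% of all genes) and 5 in siBRM/siHic5 (22.2%), and at 4 in siCHD9/siNS (10.5%) and 4 in siBRM/siNS (9.92%). KLF6 and KLF7 had peaks in all 6 lists, as did KLF9. KLF15 had none in siCHD9/siNS and KLF10 none in siBRM/siNS. At least 4 siHic5/siNS peaks were present at KLF7, KLF9 and KLF15, 3 of the 10 genes, and at 5.84% of all protein-coding genes. The 10 genes were chosen with earlier results of these data known, so these shares describe the genes and are not evidence about the family.

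**Figure D2:**
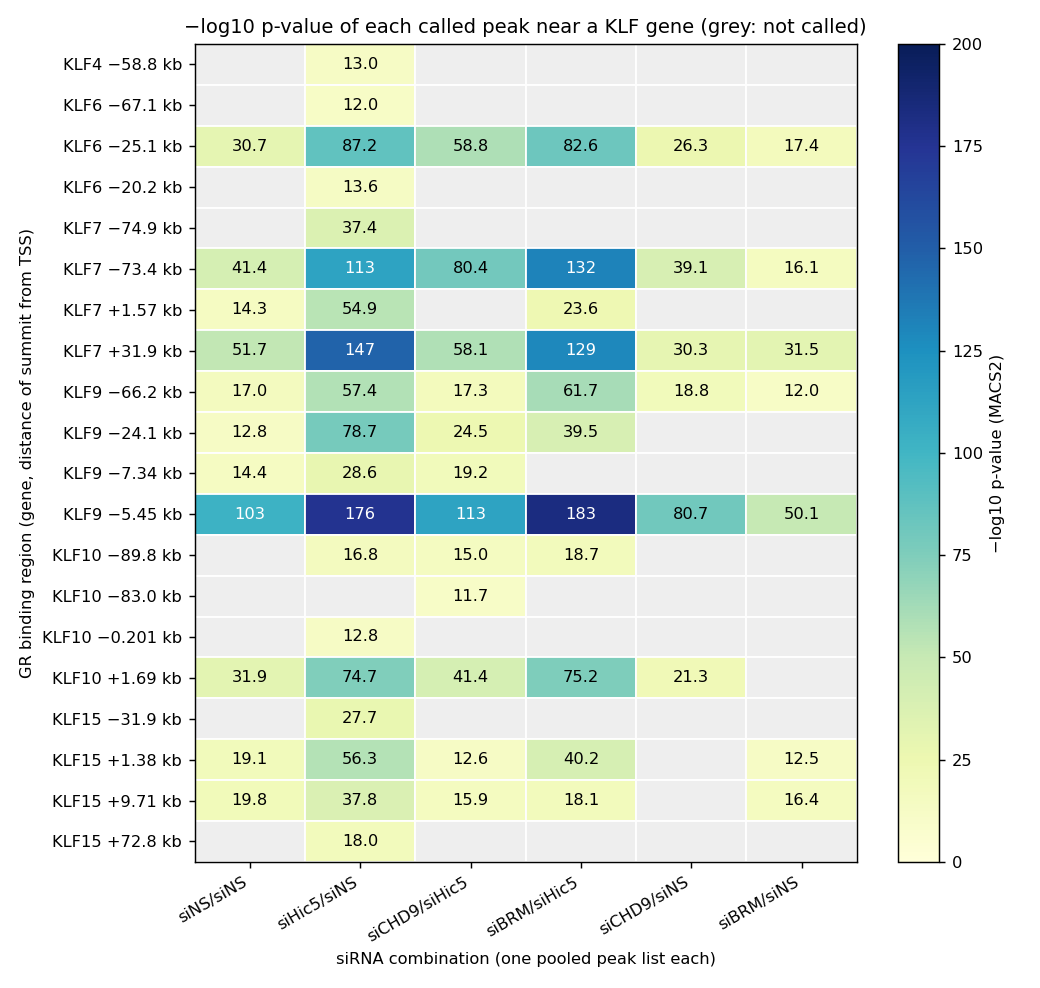
The −log10 p-value that MACS2 gave each called peak (number and color) for the 20 KLF regions (y axis) in the 6 siRNA combinations (x axis, 1 pooled list each), with grey where no peak was called. KLF9 −5.45 kb had the highest value in each column, and 7 regions were called in siHic5/siNS only. That list was the longest, and the share of all its peaks called there only was not computed.

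The most strongly called KLF region lay 5.45 kb upstream of KLF9 (summit at 70420109 on chromosome 9), in an exon of an unnamed long noncoding RNA gene. The −log10 p-value, which MACS2 computes from the excess of reads in a peak and which is higher for stronger peaks, was 103 in siNS/siNS, 176 in siHic5/siNS, 113 in siCHD9/siHic5, 183 in siBRM/siHic5, 80.7 in siCHD9/siNS and 50.1 in siBRM/siNS. Such values depend on sequencing depth, so their sizes are not compared between lists here and only the rank within a list is read. The lists also differ in length, and a longer list holds more weak peaks, so a rank or percent describes a peak in its own list and is no measure of change between lists. By rank the region was 97th of 2582, 120th of 9533, 77th of 2451, 115th of 3383, 71st of 1415 and 122nd of 1278 in the same order. It was the strongest KLF region in all 6 lists and stood in the top 9.55% or higher of each. Its peaks were broad, at 1456 bp in siBRM/siNS and 3056 bp in siBRM/siHic5, while the median width of all siNS/siNS peaks was 440 bp. The 2702 bp of its siHic5/siNS peak held the GRE near the summit, a second GRE with 1 mismatch 1260 bp away, 3 AP-1 matches and 6 KLF boxes (GGGTGTG or GGGCGTG, the letters a KLF protein itself can bind).

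The other 3 KLF9 regions were called in fewer lists or with lower rank. KLF9 −66.2 kb (chromosome 9, summit at 70480902, intergenic) was called in all 6 lists, with −log10 p-values of 17.0 in siNS/siNS, 57.4 in siHic5/siNS, 17.3 in siCHD9/siHic5, 61.7 in siBRM/siHic5, 18.8 in siCHD9/siNS and 12 in siBRM/siNS. It was within the top 13.8% of siHic5/siNS and the top 22.2% of siBRM/siHic5, and in the weaker part of the remaining lists. KLF9 −24.1 kb (summit at 70438745, intergenic) was called in siNS/siNS at 12.8, siHic5/siNS at 78.7, siCHD9/siHic5 at 24.5 and siBRM/siHic5 at 39.5, and after neither single remodeler depletion. In siNS/siNS it was the 2532nd of 2582 peaks, close to the weakest call. KLF9 −7.34 kb (summit at 70421996, intergenic) was called at 14.4 in siNS/siNS, 28.6 in siHic5/siNS and 19.2 in siCHD9/siHic5. It lay 1.89 kb from the −5.45 kb summit and was called apart from the wide peak there in all 3 lists. KLF9 thus had 4 peaks in siNS/siNS, siHic5/siNS and siCHD9/siHic5, 3 in siBRM/siHic5 and 2 after either single remodeler depletion.

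KLF7, known for roles in neuronal outgrowth and fat cell differentiation, had 2 regions in every list. KLF7 +31.9 kb (chromosome 2, summit at 207134091) lay inside the gene, at a position that some transcripts annotate as UTR. Its −log10 p-value was 51.7 in siNS/siNS, 147 in siHic5/siNS, 58.1 in siCHD9/siHic5, 129 in siBRM/siHic5, 30.3 in siCHD9/siNS and 31.5 in siBRM/siNS. It was the 198th strongest of the 9533 siHic5/siNS peaks, after KLF9 −5.45 kb the highest rank of a KLF region there. KLF7 −73.4 kb (summit at 207239370, an exon of the long noncoding RNA MYOSLID) was called at 41.4, 113, 80.4, 132, 39.1 and 16.1 in the same order. In siCHD9/siHic5, siBRM/siHic5 and siCHD9/siNS it ranked above KLF7 +31.9 kb, and in siBRM/siNS it fell in the weaker part of the list, in the top 60.6%. KLF7 +1.57 kb (summit at 207164380, in an intron of KLF7) was called in siNS/siNS at 14.3, siHic5/siNS at 54.9 and siBRM/siHic5 at 23.6. It was called in neither list with CHD9 depletion, nor in siBRM/siNS. KLF7 −74.9 kb, 1.53 kb from the −73.4 kb summit, was called in siHic5/siNS only, at 37.4.

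Near KLF15 2 regions inside the gene were called in 5 lists, and the missing list was siCHD9/siNS for both. KLF15 +1.38 kb (chromosome 3, summit at 126356030, intron) had −log10 p-values of 19.1 in siNS/siNS, 56.3 in siHic5/siNS, 12.6 in siCHD9/siHic5, 40.2 in siBRM/siHic5 and 12.5 in siBRM/siNS. KLF15 +9.71 kb (summit at 126347694, intron) had 19.8, 37.8, 15.9, 18.1 and 16.4 in the same lists. In siNS/siNS they ranked 1498th and 1427th of 2582 peaks, slightly below the middle of the list. The nearest siCHD9/siNS summit to KLF15 was 947 kb away. The remaining KLF15 regions, at −31.9 kb with a −log10 p-value of 27.7 and at +72.8 kb with 18.0, were called in siHic5/siNS alone.

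KLF10, a TGF-β-inducible factor also called TIEG1, had its strongest region 1.69 kb downstream of the TSS (chromosome 8, summit at 102654039), where the annotation gives a UTR of KLF10. It was called at 31.9 in siNS/siNS, 74.7 in siHic5/siNS, 41.4 in siCHD9/siHic5, 75.2 in siBRM/siHic5 and 21.3 in siCHD9/siNS. In siBRM/siNS it was not called, and the nearest summit in that list was 133 kb from KLF10. KLF10 −89.8 kb was absent from siNS/siNS and present in siHic5/siNS at 16.8 and in both double depletions, at 15.0 in siCHD9/siHic5 and 18.7 in siBRM/siHic5. Of the KLF regions found in siHic5/siNS and not in siNS/siNS, it was the single one called in a double depletion. KLF10 −0.201 kb, whose peak covers the TSS, was called in siHic5/siNS at 12.8. KLF10 −83.0 kb was called in siCHD9/siHic5 only, at 11.7, as the 2387th of 2451 peaks.

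KLF6, a widely expressed factor known as a tumor suppressor, had 1 region in every list and 2 in siHic5/siNS alone. KLF6 −25.1 kb (chromosome 10, summit at 3810359, in an intron of a long noncoding RNA gene) was called at 30.7 in siNS/siNS, 87.2 in siHic5/siNS, 58.8 in siCHD9/siHic5, 82.6 in siBRM/siHic5, 26.3 in siCHD9/siNS and 17.4 in siBRM/siNS. It stood in the top 6.66% of siHic5/siNS and the top 54.4% of siBRM/siNS. The regions at −20.2 kb and −67.1 kb (chromosome 10, summits at 3805405 and 3852337) were weak siHic5/siNS peaks, at 13.6 and 12, where the lowest value in the list was 12. The single region of KLF4, the pluripotency and epithelial factor, lay at −58.8 kb (chromosome 9, summit at 107548547, intergenic) and was called at 13.0 in siHic5/siNS.

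A first comparison asks which GBR appear when Hic-5 is depleted. A siHic5/siNS peak with no overlapping siNS/siNS peak is called blocked, and the others shared. The study first used blocked in this sense. Its main set also applied a test of differential binding with a fold-change cut-off, and counted some peaks called in both lists as blocked. The regions named here need not match that set. Of the 19 KLF peaks in siHic5/siNS 8 were blocked, or 42.1% (20.3 to 66.5), while 74.0% of all siHic5/siNS peaks were. The blocked regions were KLF4 −58.8 kb, KLF6 −20.2 and −67.1 kb, KLF7 −74.9 kb, KLF10 −0.201 and −89.8 kb, and KLF15 −31.9 and +72.8 kb. KLF9 had none. The reverse, a siNS/siNS peak that lacked a siHic5/siNS counterpart, was seen at 0 of 11 KLF peaks (interval 0 to 28.5) and at 3.18% of all siNS/siNS peaks. Blocked KLF regions were the weaker ones in siHic5/siNS, with a median −log10 p-value of 15.2 (12 to 37.4, n = 8 regions) against 74.7 (28.6 to 176, n = 11) for shared ones. The 2 ranges overlapped only through KLF7 −74.9 kb among the blocked and KLF9 −7.34 kb among the shared regions. The same medians were not computed over all blocked and shared peaks, so this order is not shown to be particular to KLF regions. It also rests on these calls. With a −log10 q-value of at least 20 in every list, KLF9 −24.1 kb was blocked at a −log10 p-value of 78.7. KLF10 +1.69 kb was shared there at 74.7. KLF peaks were also stronger than the list as a whole, with a median of 37.8 against 22.4 over all siHic5/siNS peaks and 13 of 19 in its stronger part, and the part of peak strength in the lower blocked share was not tested. The interval left out the share of all peaks at 100 kb but not at 200 kb, where 21 of 35 KLF peaks were blocked (42.1 to 76.1), nor with a −log10 q-value of at least 20 in every list, where 8 of 13 were (31.6 to 86.1) against 76.6% of all.

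**Figure D3:**
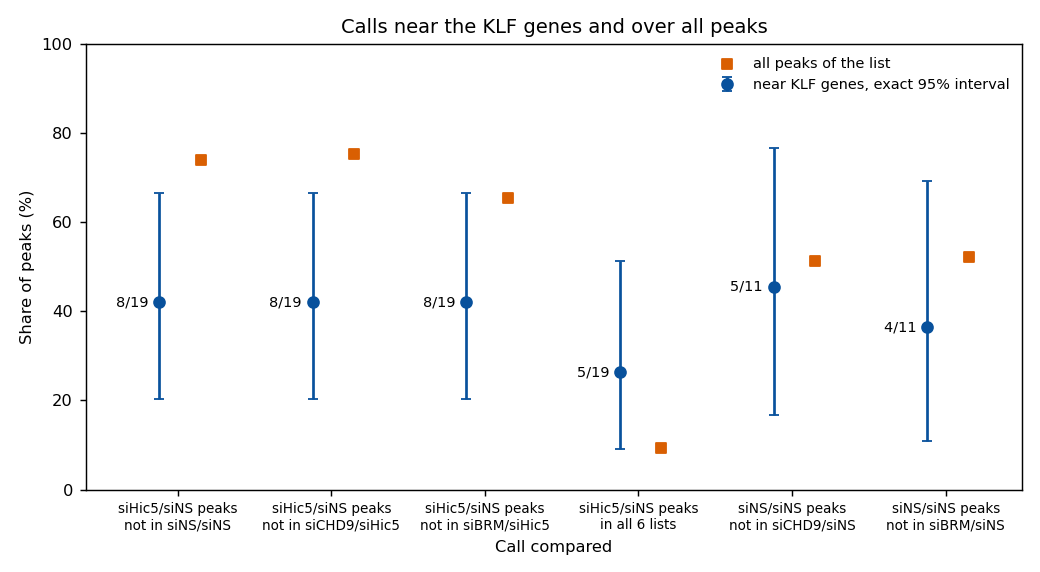
Share of peaks in percent (y axis) for 6 calls (x axis), near KLF genes (circles, with counts and exact 95% counting intervals) and over all peaks of the list (squares). The KLF share lay below that of all peaks for the 3 absences among siHic5/siNS peaks and above it for presence in all 6 lists, and the interval left out the value of all peaks for the first 2 calls only.

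A second comparison asks what CHD9 or BRM depletion does in cells that lack Hic-5. Of the 19 KLF peaks in siHic5/siNS 8 had no siCHD9/siHic5 peak and 8 had no siBRM/siHic5 peak, 42.1% (20.3 to 66.5) each, against 75.4% and 65.4% of all siHic5/siNS peaks. The interval lay below the share of all peaks for siCHD9/siHic5 and included it for siBRM/siHic5, and with a −log10 q-value of at least 20 it included both. Among the 8 blocked KLF regions 7 were missing from siCHD9/siHic5, or 87.5% (47.3 to 99.7), next to 90.6% of all blocked peaks. The same 7 of 8 were missing from siBRM/siHic5, next to 83.3% of all blocked peaks, and KLF10 −89.8 kb was the one present in both. Both intervals were wide and included the share of all blocked peaks. The lowest −log10 p-value of any peak in siBRM/siHic5 was 17.8. KLF4 −58.8 kb, KLF6 −20.2 and −67.1 kb, and KLF10 −0.201 kb were at most 13.6 in siHic5/siNS. The part of this limit in their absence from siBRM/siHic5 was not tested. Among the 11 shared KLF regions 1 was missing from siCHD9/siHic5, KLF7 +1.57 kb, and 1 from siBRM/siHic5, KLF9 −7.34 kb. These were 9.09% each (0.230 to 41.3), compared with 32.3% and 14.3% of all shared peaks, which the interval included.

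The last comparison asks what the remodelers do while Hic-5 is present. Of the 11 KLF peaks in siNS/siNS 5 had no siCHD9/siNS peak, or 45.5% (16.7 to 76.6), and 51.4% of all siNS/siNS peaks had none. In siBRM/siNS 4 were missing, or 36.4% (10.9 to 69.2), against 52.2% of all. Both intervals included the share of all peaks. KLF7 +1.57 kb, KLF9 −7.34 kb and KLF9 −24.1 kb were absent from both single depletions, both KLF15 regions from siCHD9/siNS alone, and KLF10 +1.69 kb from siBRM/siNS alone. The 3 regions absent from both were among the weaker siNS/siNS peaks, in the top 85.8%, 84.9% and 98.1% of the list. KLF10 +1.69 kb was stronger, in its top 27.8%. The 5 regions called in all 6 lists, KLF6 −25.1 kb, KLF7 +31.9 and −73.4 kb, and KLF9 −5.45 and −66.2 kb, made up 26.3% (9.15 to 51.2) of the KLF siHic5/siNS peaks, against 9.25% of all, a value just inside the interval. A region that was not called has no value in that list, so how far its signal lay under the threshold cannot be given.

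**Figure D4:**
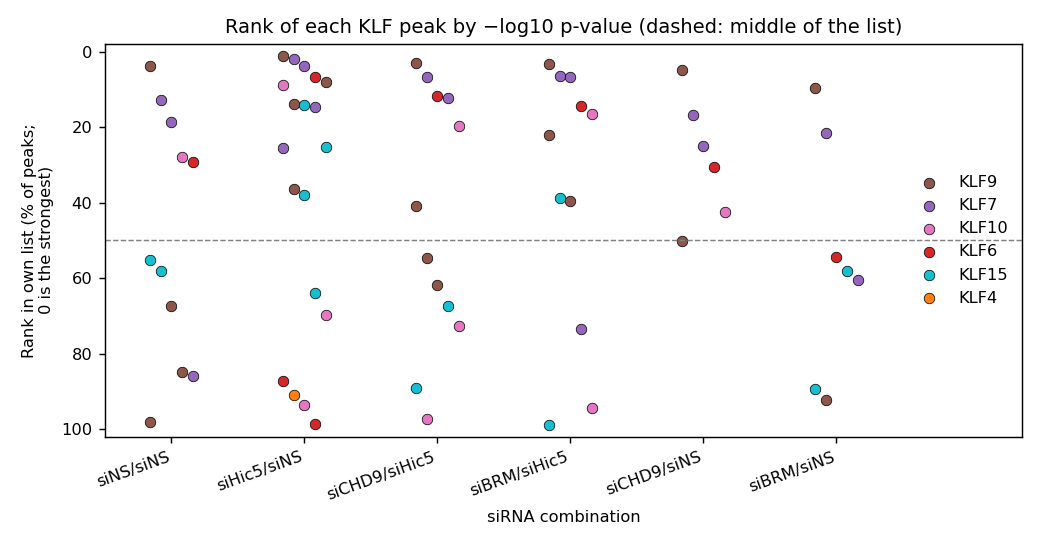
Rank of every KLF peak by −log10 p-value within its own list, in percent of the list (y axis, 0 is the strongest), for the 6 siRNA combinations (x axis), with 1 point per peak colored by gene and a dashed line at the middle of the list. In siHic5/siNS 13 of 19 KLF peaks lay in the stronger part, and KLF9 −5.45 kb was the highest point in every list.

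Within the lists the KLF peaks did not hold one place. Their median −log10 p-value was 19.8 in siNS/siNS, where that of all peaks was 21.2, and 16.4 in siBRM/siNS, where it was 18.6. It was 21.9 against 20.7 in siCHD9/siHic5, 61.7 against 32.8 in siBRM/siHic5 and 28.3 against 18.9 in siCHD9/siNS. KLF peaks were therefore near the middle of the siNS/siNS, siCHD9/siHic5 and siBRM/siNS lists, and above it in the other 3. The summits moved little. In the 12 regions called in more than 1 list they spanned 13 to 92 bp, and between siNS/siNS and siHic5/siNS the median shift was 31.0 bp (2 to 92, n = 11 regions), compared with 17.0 bp over 2474 shared peaks.

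In the 1-kb windows at the 20 summits a GRE matched in 8, or 40.0% (19.1 to 63.9), and in 53.5% of the windows at 9530 siHic5/siNS peaks. With another pattern, the hexamers AGAACA and TGTTCT spaced by 3 bases with at most 2 mismatches, the shares were 25.0% (8.66 to 49.1) and 24.6%. The interval included the share of all peaks with either pattern, and the KLF share was the lower one with the first pattern only. AP-1 matched in 10 of 20 (27.2 to 72.8%), against 48.2%. The ETS core (CAGGAA or CCGGAA) matched in 19 of 20 (75.1 to 99.9%), against 78.4%, and KLF10 −0.201 kb was the window without it. The KLF box matched in 5, or 25.0% (8.66 to 49.1), against 29.6%. These 5 windows were KLF7 +31.9 and −73.4 kb, KLF9 −5.45 kb, and KLF10 +1.69 and −83.0 kb. A GRE was present at 4 of the 11 regions called in siNS/siNS and 4 of the 9 others. The ETS core was present at 11 and 8 of them, AP-1 at 6 and 4, and the KLF box at 4 and 1. These splits by call were not computed over all peaks. In the central 200 bp the shares were 35.0% (15.4 to 59.2) for GRE, 35.0% (15.4 to 59.2) for AP-1 and 15.0% (3.21 to 37.9) for the KLF box. At all peaks they were 46.1%, 24.7% and 8.53%. The ETS core was in 10 of 20 (27.2 to 72.8%), against 37.0%. Each of these intervals included the share of all peaks. Of the GRE nearest to each summit 3 had 0 mismatches, those printed above for KLF9 and KLF15, all at regions called in siNS/siNS. The share of such GRE was not computed over all shared and blocked peaks, so no link with the calls is drawn. KLF7 had 2 regions in every list, and neither held a GRE in its window.

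**Figure D5:**
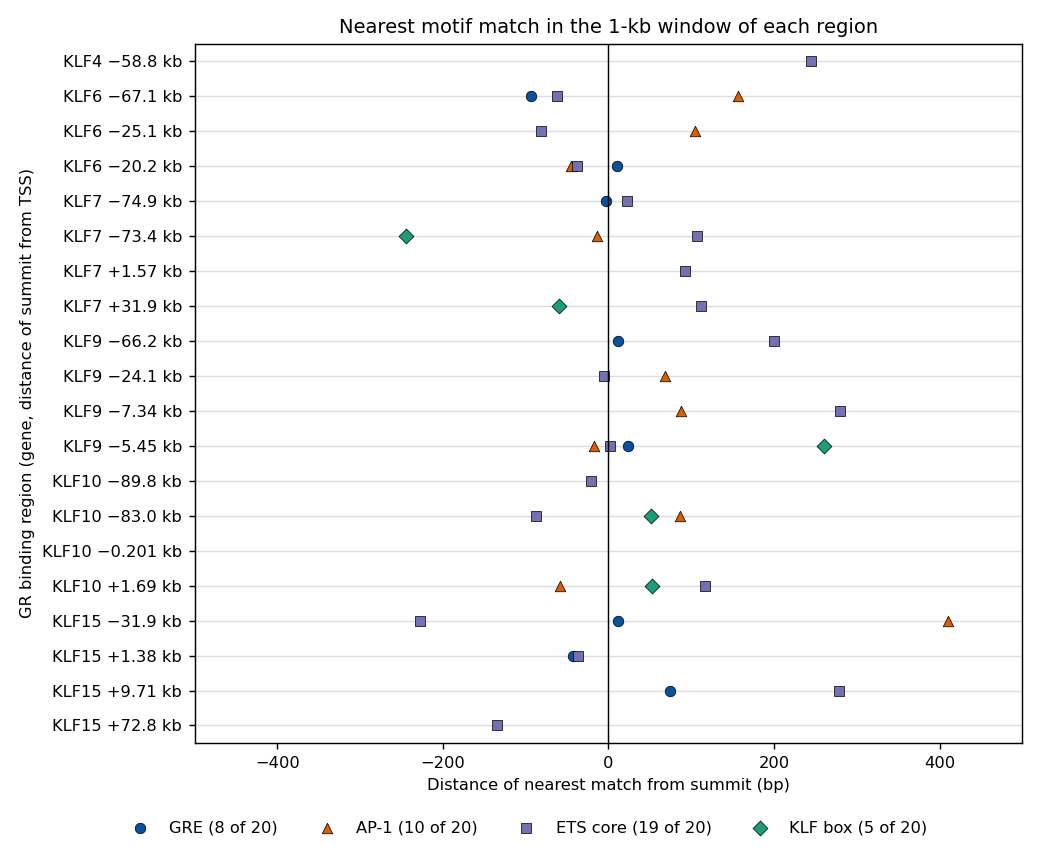
Distance in bp from the summit to the nearest match of each motif (x axis) in the 1-kb window of each of the 20 KLF regions (y axis), with symbols for GRE, AP-1, ETS core and KLF box. GRE were found in 8 regions, all within 94 bp of the summit, and the ETS core in 19. A GRE lay within 50 bp at 3 of the 4 regions with a GRE called in siNS/siNS and at 3 of the 4 others. Over all siHic5/siNS peaks with a GRE, 3822 of 5103 had it within 50 bp, and the median distance was 20.0 bp.

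Among 16 further genes of the KLF and SP family 7 had a peak in any list. All 7 had one in siHic5/siNS, as did 43.6% of all protein-coding genes, and 4 had one there only, a share not computed over all genes. These 4 were KLF3, with a summit 0.200 kb from its TSS, SP4 at 61.6 kb, and SP1 and SP7, the osteoblast factor osterix, at 8.97 and 34.9 kb from 1 summit between them. KLF16 (90.1 kb) and the neighbors SP2 and SP6 (12.8 and 32.3 kb), which share the same peaks, had peaks in siNS/siNS. KLF1, KLF8, KLF12, KLF14, KLF17, SP3, SP5, SP8 and SP9 had none in any list. The genes whose numbers of peaks in the 6 lists were nearest to those of KLF7, by Euclidean distance over the lists, were EIF4B (distance 0), BBS2 and C6orf132 (1.00 each). For KLF9 they were the protamine genes PRM1, PRM2 and PRM3 (1.00), which lie in one cluster, and for KLF15 an unnamed gene, ITGB4 and MAT2A (1.00). With 5 genes tied at the distance of KLF9 and 9 at that of KLF15, these names were taken in order of symbol.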

How the data were processed

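GR ChIP-seq peak lists of 6 siRNA combinations were used. Per the submitters' processing notes and the study's methods, the authors trimmed the reads, aligned them to GRCh38/hg38 with BWA, called peaks with MACS2 on pooled replicates and filtered them by IDR, a measure of reproducibility between replicates. Versions, the IDR threshold and the control are not given in the sources used here. The deposited lists give each peak's position, summit offset, a signal value, and its p-value and q-value on a −log10 scale, all computed by the authors with MACS2. Deeper libraries give higher −log10 values and more weak calls. The signal values were not compared, and DiffBind and ATAC-seq results were not used.

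Summits were compared with the TSS of GENCODE release 44 canonical transcripts, and 0 peaks extended beyond the reference sequences. Lists were matched by an overlap of at least 1 bp. Regions were named by gene and by the distance of the summit in siHic5/siNS, where called. Motifs were searched in hg38 windows of 1 kb and 200 bp, and 121 bases were printed. No test was run, since pooled lists hold no replicates. The overlap, region-merging and main motif searches were tested on simulated data. The genes and motifs were chosen with earlier results of these data known. All 10 genes were named, with values in every list for each gene's strongest siHic5/siNS region, its region nearest the TSS, every region called in siNS/siNS and any region absent from siHic5/siNS, and other regions were added after their values were seen. Genes of like pattern were to be given for the gene with most siHic5/siNS peaks, and since KLF7, KLF9 and KLF15 tied at 4 all were given. Alternatives were other distances, overlap rules, q-value thresholds, numbers of strongest peaks and motif patterns. Python 3.11.15, SciPy 1.17.1, pysam 0.24.0, Matplotlib 3.10.9, samtools 1.23.1 and bedtools 2.31.1 were used.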

Additional observations from a re-analysis of the deposited data

How the results depend on the processing

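Over 12 results and 96 alternative values, 80 stayed within the counting interval or within 1.5 times the count, and 16 did not. The number of KLF regions, 20 at 100 kb, was 12 at 50 kb, 37 at 200 kb, 13 with a −log10 q-value of at least 20 and 8 among the 1000 strongest peaks of each list. The 11 siNS/siNS peaks became 7 at a −log10 q-value of at least 14.2 in every list, 5 at 20 and 5 among the 1000 strongest, and the 19 siHic5/siNS peaks became 12 at 50 kb, 35 at 200 kb and 6 among the 1000 strongest. The blocked share of 42.1% was lowest among the 1000 strongest, 16.7% (1 of 6, with 28.9% of all peaks there), and highest at a −log10 q-value of at least 20, 61.5% (8 of 13). Its interval included the share of all peaks in both, at 200 kb, and at the common q-value (7 of 14, 76.1% of all). The regions counted as blocked were not the same at each threshold. Among the 1000 strongest the share absent from siCHD9/siHic5 was 0% (29.8% of all), from siBRM/siHic5 16.7% (22.3% of all), and the siNS/siNS share absent from siCHD9/siNS 0% (26.6% of all). The siNS/siNS share absent from siBRM/siNS was 71.4% (5 of 7, 60.2% of all) at the common q-value, 3 of 5 at 20 and 1 of 5 among the 1000 strongest, and that absent from siCHD9/siNS was 2 of 7 and 1 of 5 at these q-values. For both siNS/siNS shares the interval included the share of all peaks in every setting tried. The KLF box share was 85.0% with CACCC as the pattern, which 89.3% of all peaks held. No paired analysis was possible because the lists were made from pooled replicates, and for the same reason no replicate could be left out. The lists carry no read depth, and the raw read totals that the study shows per sample were not used here. Depth affects which weak regions are called, and its part in the regions called in siHic5/siNS only was not tested.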
